A study of Mus musculus with 5 samples.

Results

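The SWI/SNF (BAF) complex was examined through 10 of its subunit genes, Smarca2, Smarca4, Smarcb1, Smarcc1, Smarcc2, Smarcd1, Smarce1, Arid1a, Arid1b and Arid2, in RNA-seq of mouse embryonic neural tubes. The members were taken by gene symbol from the 23284 symbols in the count tables. All 10 were present, and all 10 passed the filter on low counts together with 12703 genes in all. Neural tubes, the tissue that gives rise to the brain and spinal cord, came from embryos of EpoR heterozygous crosses, labelled E8.5 (the paper places them slightly later). EpoR encodes the erythropoietin receptor. The EpoR-null group (EpoR -/-) had 2 libraries, the wild type group (EpoR +/+) had 2 and the heterozygote group (EpoR +/-) had 1, and the last 3 libraries were the littermate controls. The null allele is inherited and not limited to neural cells, so that the blood and other tissues of an EpoR-null embryo carry it too. Whether a library came from 1 embryo or from a pool was not given in the sources used here, and p-values therefore measure the spread between these libraries only.

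BAF complexes use ATP to slide or evict nucleosomes and so set which promoters and enhancers are open. Each canonical BAF or PBAF complex holds 1 of the alternative ATPases, SMARCA4 (BRG1) or SMARCA2 (BRM). It also holds a shared core that includes SMARCB1, SMARCC, SMARCD and SMARCE1 proteins, and an ARID protein that tells these subtypes apart. ARID1A or ARID1B marks canonical BAF, and ARID2 marks PBAF together with PBRM1. Neural progenitors carry a progenitor form with ACTL6A, PHF10 and SS18, which are exchanged for ACTL6B, DPF1 or DPF3 and SS18L1 as cells become neurons. REST, the repressor of neuronal genes studied in the paper, is among the factors known to recruit SWI/SNF proteins.

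Reads counted on genes ranged from 19316126 to 41169218 per library, so that 3 reads equal between 0.0729 and 0.155 CPM (read counts scaled to a common library size). Epor itself had 57 and 68 reads in the wild type libraries, 11 in the library labelled heterozygote, and 7 and 19 in the EpoR-null libraries. It therefore did not set the library labelled heterozygote apart from the EpoR-null libraries (edgeR exact test against all controls, FDR 0.28), and it is not known which exons the reads came from. The library labelled heterozygote also stood apart in markers of other tissues, with a summed level of 43.8 CPM for 7 primitive erythroid markers against 602 to 1691 CPM in the other 4 libraries, and 11.5 CPM for 6 endothelial markers against 111 to 255 CPM. The 8 neural progenitor markers were detected in every library and summed to 1442 to 1908 CPM, with 1 of them passing FDR < 0.05 (lower). Summed markers of neural crest (5 genes), mesoderm (7) and surface ectoderm (5) ranged from 23.6 to 97.9, 10.1 to 112 and 5.40 to 29.8 CPM, the lowest in each being the library labelled heterozygote. No marker outside the progenitor list passed, and of all these markers Hba-a1 alone had no reads in at least 1 library. The 6 neuron markers (Tubb3, Dcx, Elavl3, Elavl4, Stmn2 and Neurod1) summed to 275 to 458 CPM in the controls, 998 CPM in EpoR-null replicate 1 and 188 CPM in EpoR-null replicate 2, so that the EpoR-null libraries lay on opposite sides of the controls. In bulk tissue, fewer cells of a type and less RNA per cell cannot be told apart.

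Promoter sequences of the members are shown because NRF1 is a factor the study considered, and its site can be looked for in them. The abbreviation is used both for nuclear respiratory factor 1, whose site was searched here, and for NFE2L1, which binds other letters. RefSeq promoters on GRCm38.p6, from 250 bases before to 50 after a gene start, were given for 8 of the 10 members. Arid2 and Smarce1 had no entry. The letters GCGCATGC, the core of the nuclear respiratory factor 1 site, were searched on both strands. They were found in the promoters of Smarca4 (2 matches), Smarcc1 (1 match) and Smarcb1 (1 match), and in 3.05% of 27025 genes with a promoter in the table. No match was found for Smarca2, Smarcc2, Smarcd1, Arid1a or Arid1b, and none of the 8 promoters held the STAT core TTCNNNGAA, which was in 9.55% of genes. A match is a description of the sequence and does not show binding. The promoters of the 8 members were 60.7% to 81% GC, and the shares over all genes were not matched for GC content. The RefSeq start of Smarcc1 lies inside the gene as GENCODE M21 draws it. The 250 bases before the start of Smarca4 (chr9:21615919-21616168, plus strand) and of Smarcc1 (chr9:110131774-110132023, plus strand), and 30 bases around the match of Smarcb1 (chr10:75921582-75921611, minus strand), which lies just past the gene start, read as follows, with the matches in capitals.
Smarca4: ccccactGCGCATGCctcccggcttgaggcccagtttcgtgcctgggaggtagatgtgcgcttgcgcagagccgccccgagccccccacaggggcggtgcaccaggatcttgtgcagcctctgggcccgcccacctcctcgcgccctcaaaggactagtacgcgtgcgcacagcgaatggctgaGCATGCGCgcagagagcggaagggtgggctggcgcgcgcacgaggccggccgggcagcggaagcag
Smarcc1: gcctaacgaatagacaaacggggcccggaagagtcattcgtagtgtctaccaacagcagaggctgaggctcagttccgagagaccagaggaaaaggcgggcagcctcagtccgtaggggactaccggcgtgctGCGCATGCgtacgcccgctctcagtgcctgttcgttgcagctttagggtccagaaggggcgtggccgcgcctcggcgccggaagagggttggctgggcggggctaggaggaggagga
Smarcb1: agcttctccacGCATGCGCaccgagggcgg

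EpoR-null neural tubes had less Arid1a and Arid2 RNA than controls, by 0.716-fold and 0.641-fold, and these were the 2 of 10 members that passed the thresholds of the study (p < 0.001 and FDR < 0.05, exact test of edgeR with TMM normalization). The background for lower calls was 3.84% of genes tested. Smarcc1 joined them at FDR < 0.05 alone, which made 3 of 10 lower members against a background of 5.49%. No member passed in the higher direction, where the background at FDR < 0.05 was 1.81%. In CPM, both EpoR-null libraries lay below all 3 controls for 5 members (Smarca4, Smarcc1, Arid1a, Arid1b and Arid2), against 22.1% of genes tested, and above all 3 controls for 1 member (Smarcb1), against 21.2%. The median log2 fold change of the 10 members was -0.28, beside 0.06 over all genes tested, and 7 of the 10 had a negative fold change. In edgeR, the quasi-likelihood F-test, which adds the uncertainty of each gene's dispersion, gave no calls, with 0 members and 0 of all genes tested. At an unadjusted p under 0.05 in that test were 6 of the 10 members, beside 3052 of the 12703 genes tested.

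**Figure D1:**
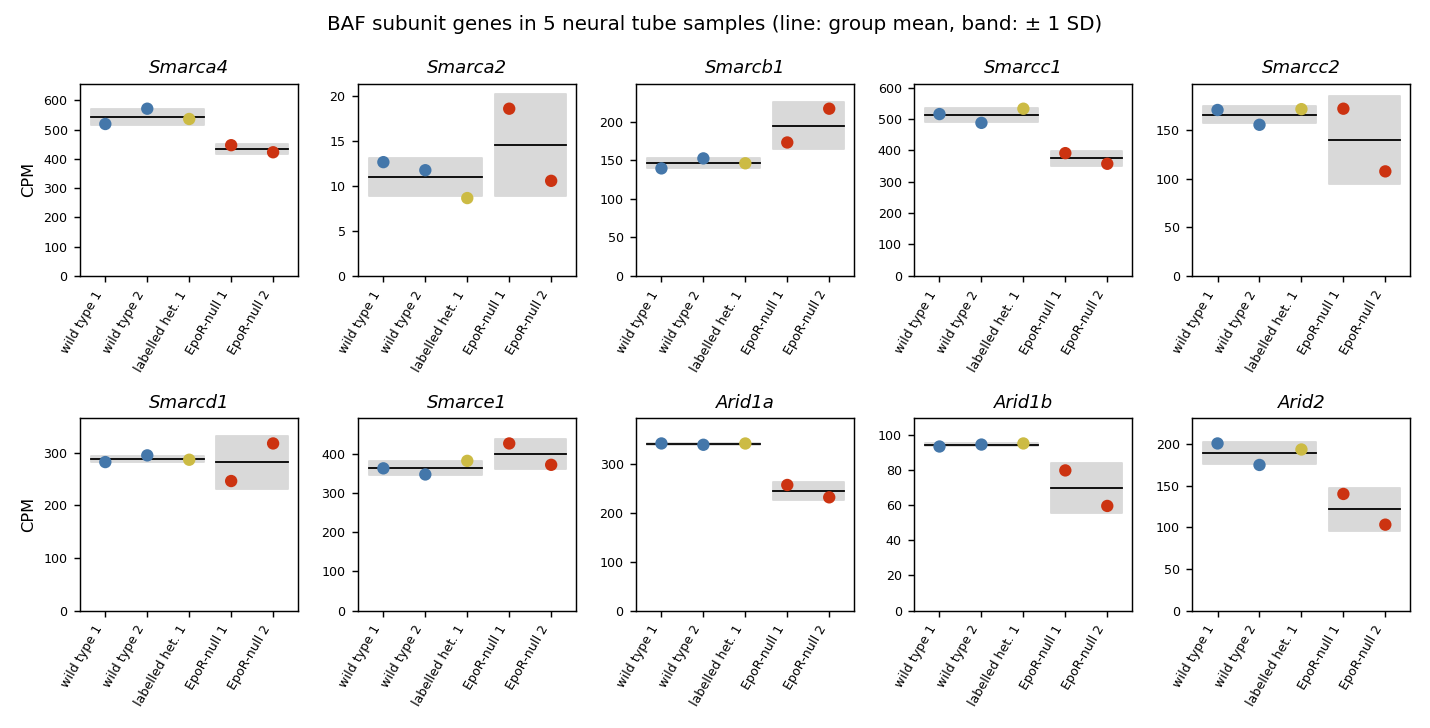
CPM (vertical axes, from 0, scaled per gene) of each of the 10 members in the 5 libraries, with blue points for wild type, yellow for the library labelled heterozygote and red for EpoR-null; lines are group means of the 3 controls and the 2 EpoR-null libraries, and bands are ± 1 SD. The red points lie below all other points for Smarca4, Smarcc1, Arid1a, Arid1b and Arid2, above them for Smarcb1, and mixed with them for the other 4 genes.

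The ARID subunits direct the complex and distinguish its subtypes. Arid1a (chromosome 4 of GRCm38, 133679008 to 133756769, minus strand), the larger partner of canonical BAF in amount, had 342 and 339 CPM in wild type replicates 1 and 2, 342 CPM in the library labelled heterozygote, and 257 and 232 CPM in EpoR-null replicates 1 and 2. The controls were within a few CPM of each other and both EpoR-null libraries were well under them. Controls averaged 340.8 ± 1.52 CPM (SD, n = 3) against 244 ± 17.9 CPM (SD, n = 2) in EpoR-null. On the log2 scale Arid1a fell by 0.48 with a standard error of 0.14 (FDR 0.0135 in the edgeR exact test). Arid2 (chromosome 15, 96287518 to 96404992, plus strand), the ARID protein of PBAF, had 201 and 175 CPM in wild type, 193 CPM in the library labelled heterozygote, and 140 and 103 CPM in the EpoR-null libraries. EpoR-null replicate 2 was the lowest and the groups did not overlap. Controls averaged 189 ± 13.3 CPM (SD, n = 3) against 121 ± 26.1 CPM (SD, n = 2) in EpoR-null, and on the log2 scale Arid2 fell by 0.64 with a standard error of 0.19 (FDR 0.0172 in the edgeR exact test).

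Arid1b (chromosome 17, 4994332 to 5347656, plus strand), the alternative to Arid1a, had 93.5 and 94.6 CPM in wild type, 95.3 CPM in the library labelled heterozygote, and 79.9 and 59.7 CPM in the EpoR-null libraries. The groups did not overlap, yet the EpoR-null libraries were much farther apart than the controls, whose SD was 0.882 CPM (n = 3). Its log2 fold change was -0.44 (95% interval -0.77 to -0.10) and did not pass the threshold (exact test of edgeR, FDR 0.105). Without EpoR-null replicate 1, the library rich in neuron markers, Arid1b passed at a log2 fold change of -0.66 (FDR 1.52e-07, with the lone EpoR-null library assumed to vary like the controls). Arid1a and Arid2 kept negative fold changes with any 1 library left out (-0.56 to -0.41 and -0.88 to -0.44). Their calls were lost in the exact test without wild type replicate 1 (FDR 0.319 and 0.296), wild type replicate 2 (0.160 and 0.0715) or the library labelled heterozygote (0.123 and 0.144), and without EpoR-null replicate 2 they held FDR < 0.05 (0.0137 and 0.0203) but not p < 0.001 (p = 0.00109 and 0.00186 in the edgeR exact test). In the quasi-likelihood F-test the FDR was 0.0714 for Arid1a and 0.0995 for Arid2.

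Of the ATPases, which supply the motor of the complex, Smarca4 was by far the more abundant and Smarca2 was the least abundant member. Smarca4 (chromosome 9, 21616169 to 21704230, plus strand) had 519 and 571 CPM in wild type, 536 CPM in the library labelled heterozygote, and 447 and 422 CPM in the EpoR-null libraries. All controls were above both EpoR-null libraries. The log2 fold change was -0.32 (95% interval -0.59 to -0.05), which did not pass the threshold in the exact test of edgeR (FDR 0.159). DESeq2 called Smarca4 with the same direction (log2 fold change -0.32, FDR 0.00842). Smarca2 (chromosome 19, 26605050 to 26778322, plus strand) had 12.6 and 11.7 CPM in wild type, 8.65 CPM in the library labelled heterozygote, and 18.6 and 10.6 CPM in the EpoR-null libraries. Its highest value was in EpoR-null replicate 1 and the other EpoR-null library was inside the range of the controls. The log2 fold change of 0.40 had an interval from -0.32 to 1.12 (FDR 0.580, exact test of edgeR), and it was -0.06 once EpoR-null replicate 1 was left out.

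Per kilobase of transcript, the Smarca4 level was 38.1 and 45.2 times that of Smarca2 in wild type, 57.6 times in the library labelled heterozygote, and 22.3 and 37.1 times in the EpoR-null libraries. Both EpoR-null ratios were below the 3 control ratios. With 2 libraries against 3, an exact two-sided permutation test cannot give a p below 0.2, and this ratio was not tested.

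The core subunits did not move in 1 direction. Smarcc1 (BAF155, chromosome 9, 110117708 to 110240178, plus strand), a scaffold on which the complex assembles, had 516 and 488 CPM in wild type, 533 CPM in the library labelled heterozygote, and 392 and 358 CPM in the EpoR-null libraries. The EpoR-null libraries were close to each other and below every control. Controls averaged 513 ± 22.8 CPM (SD, n = 3) against 375 ± 24.0 CPM (SD, n = 2) in EpoR-null, a difference of -0.45 on the log2 scale with a standard error of 0.14. Smarcc1 passed FDR < 0.05 (0.0280) but not p < 0.001 (p = 0.00155) in the exact test of edgeR. In the same test the FDR rose to 0.160 to 0.415 when any 1 of the controls was left out. Its paralog Smarcc2 (BAF170, chromosome 10, 128459248 to 128490482, plus strand) had 171 and 155 CPM in wild type, 172 CPM in the library labelled heterozygote, and 172 and 108 CPM in the EpoR-null libraries. EpoR-null replicate 1 equalled the highest controls and replicate 2 was the lowest library. Its log2 fold change of -0.25 had an interval from -0.70 to 0.21 (FDR 0.609), and was 0.05 without EpoR-null replicate 2 and -0.62 without replicate 1.

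Smarcb1 (SNF5, chromosome 10, 75896769 to 75921617, minus strand), which anchors the complex on the nucleosome, had 139 and 152 CPM in wild type, 146 CPM in the library labelled heterozygote, and 173 and 217 CPM in the EpoR-null libraries. It was the member whose EpoR-null libraries lay above all controls. The log2 fold change was 0.42 (95% interval 0.10 to 0.73, FDR 0.0898 in the edgeR exact test), which did not pass the threshold. It was 0.57 without EpoR-null replicate 1. Smarce1 (BAF57, chromosome 11, 99209047 to 99231017, minus strand), a DNA-binding core subunit, had 363 and 347 CPM in wild type, 382 CPM in the library labelled heterozygote, and 426 and 372 CPM in the EpoR-null libraries, and the groups overlapped. Its log2 fold change was 0.13 (95% interval -0.16 to 0.42, FDR 0.665 in the edgeR exact test). Reads that align to both Smarce1 and the pseudogene Smarce1-ps1 may be left out of its count, and their number is not known. Smarcd1 (BAF60a, chromosome 15, 99702129 to 99713991, plus strand), which links the complex to transcription factors, had 282 and 295 CPM in wild type, 287 CPM in the library labelled heterozygote, and 246 and 318 CPM in the EpoR-null libraries. The EpoR-null libraries lay on either side of the controls, the log2 fold change was -0.03 (95% interval -0.36 to 0.30, FDR 0.954), and it was -0.23 or 0.14 with 1 or the other left out. For Smarcd1, 12.7% of annotated exon bases overlap genes on the opposite strand, and the strand setting of the counting was not given in the sources used here.

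**Figure D2:**
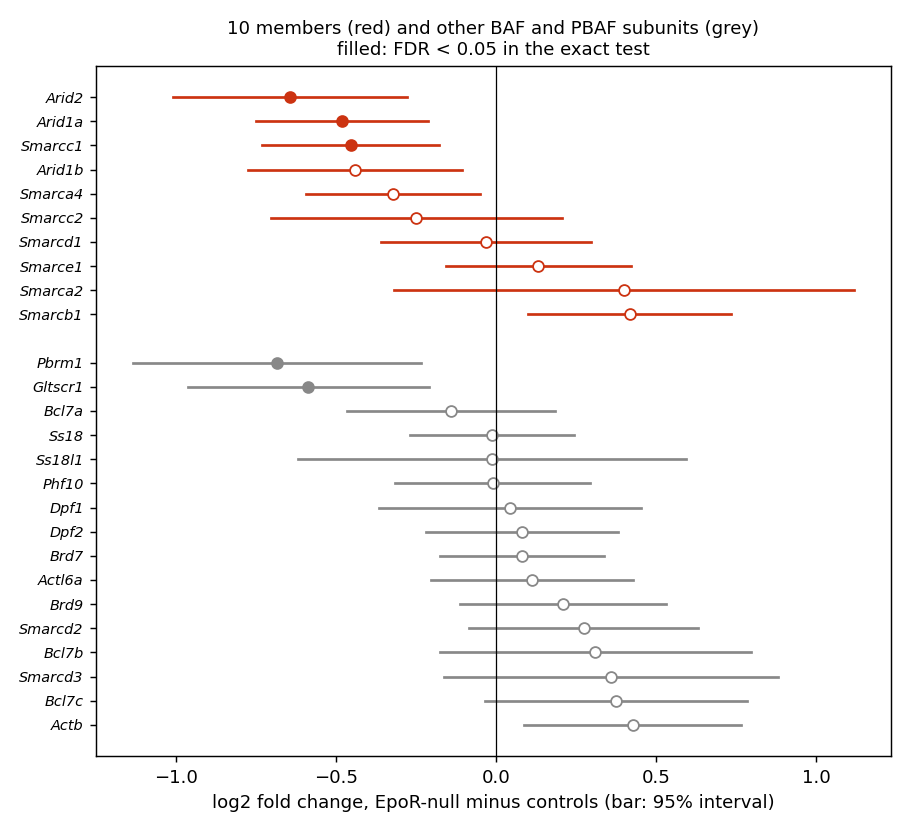
Log2 fold change of EpoR-null minus controls (horizontal axis) with 95% intervals for the 10 members (red) and the 16 other BAF and PBAF subunits tested (grey); filled points passed FDR < 0.05 in the exact test. Filled points are Arid2, Arid1a and Smarcc1 among the members and Pbrm1 and Gltscr1 among the others, all to the left of 0.

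Of 23 other BAF and PBAF subunit symbols listed, older names included, 20 were in the tables and 16 were tested. None passed p < 0.001 and FDR < 0.05 in the edgeR exact test. At FDR < 0.05 alone 2 passed, both lower, against a background of 5.49% of genes tested, and 0 passed higher (background 1.81%). Their median log2 fold change was 0.08. Pbrm1, the bromodomain subunit that defines PBAF with Arid2, had 226 and 188 CPM in wild type, 221 CPM in the library labelled heterozygote, and 160 and 104 CPM in the EpoR-null libraries, which is -0.68 on the log2 scale with a standard error of 0.23 (FDR 0.0496). Gltscr1, now named Bicra and the subunit that defines the non-canonical BAF form, had 38.8 and 50.1 CPM in wild type, 41.5 CPM in the library labelled heterozygote, and 28.3 and 29.6 CPM in the EpoR-null libraries, which is -0.59 on the log2 scale with a standard error of 0.19 (FDR 0.0418). The EpoR-null libraries were below all controls for both genes. Their transcripts have 7907 and 5975 bases. Of all transcripts over 5257 bases, 16.1% were called lower at p < 0.001 and FDR < 0.05 in the edgeR exact test. Once each library's trend on length and GC was removed through offsets, their log2 fold changes were -0.22 and -0.42 (likelihood-ratio test of edgeR, FDR 0.999 and 0.529), and in the quasi-likelihood F-test the FDR was 0.137 and 0.0972. The other PBAF subunits listed, Phf10 and Brd7, had log2 fold changes of -0.01 (95% interval -0.31 to 0.29) and 0.08 (-0.17 to 0.34). Actb, whose product is both a cytoskeletal protein and a BAF subunit, had 1585 to 2045 CPM in controls and 2308 and 2566 CPM in EpoR-null (0.43 on the log2 scale, FDR 0.110, edgeR exact test).

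The subunits that differ between progenitor and neuronal BAF did not pass the test. The progenitor subunits Actl6a and Ss18 had 205 ± 9.08 and 137 ± 4.96 CPM (SD, n = 3) in controls and 221 ± 33.4 and 136 ± 4.92 CPM (SD, n = 2) in EpoR-null. Their log2 fold changes were 0.11 (95% interval -0.20 to 0.43) and -0.01 (-0.27 to 0.24). The neuronal subunits Dpf1 and Ss18l1 were low, at 18.7 and 15.2 CPM in controls and 19.3 and 15.1 CPM in EpoR-null. The Smarcd1 paralogs Smarcd2 and Smarcd3 had log2 fold changes of 0.27 (95% interval -0.08 to 0.63) and 0.36 (-0.16 to 0.88). Actl6b, Dpf3, Bcl11a and Bcl11b had a CPM above 1 in fewer than 2 libraries and were not tested.

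Among those 4 untested genes the EpoR-null libraries differed. Actl6b, the neuronal actin-related subunit, had 13, 17 and 14 reads in wild type replicates 1 and 2 and the library labelled heterozygote, 50 reads in EpoR-null replicate 1 and 10 in replicate 2. Bcl11a, a zinc finger subunit, had 12, 9 and 14 reads in controls, 100 in EpoR-null replicate 1 and 3 in replicate 2. Both were highest in the library with the most neuron marker RNA (998 CPM over 6 markers, against 188 CPM in the other EpoR-null library). In EpoR-null replicates 1 and 2, Bcl11b had 17 and 4 reads and Dpf3 had 18 and 15. The neuronal subunit Ss18l1 had 18.9 and 11.3 CPM. Dpf1, with 19.0 and 19.5 CPM, did not follow the markers in the EpoR-null libraries. Of the 10 members, 8 were lower in EpoR-null replicate 2 than in replicate 1, and Smarcb1 and Smarcd1 were higher. For 7 of the 8 the difference exceeded what the controls spanned on the log2 scale of CPM + 0.5. The like share over all genes tested was not computed, so whether these counts are particular to the members is not known. The differences were largest for Smarca2 and Smarcc2, at 0.79 and 0.68 where the controls spanned 0.52 and 0.14. Arid2 and Arid1b followed at 0.44 and 0.42, where the controls spanned 0.20 and 0.03. Among the controls, the library labelled heterozygote had the highest neuron marker sum (458 CPM). It also had the lowest Smarca2 (8.65 CPM) and the highest Smarcc2 (172 CPM) of the controls. The part of neuronal content in these values was not tested.

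**Figure D3:**
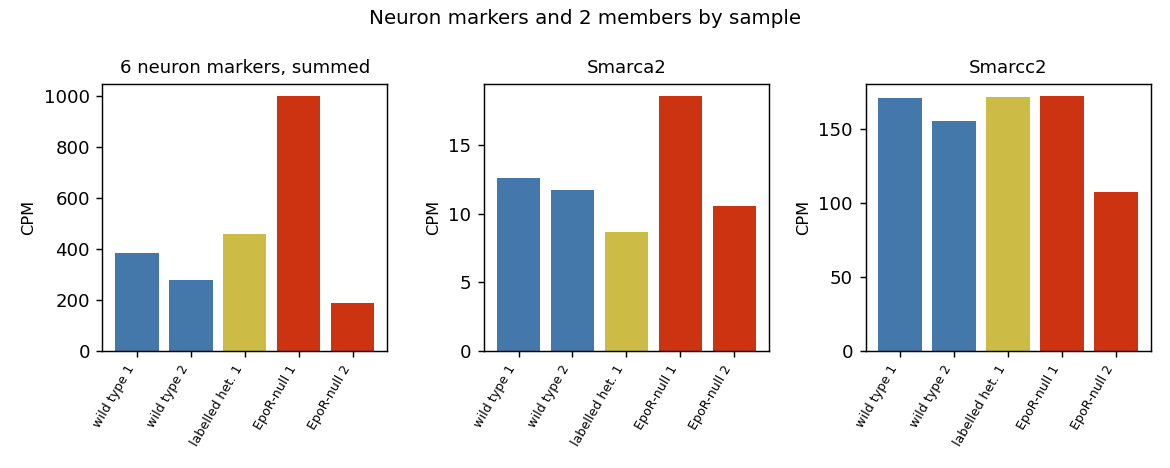
Summed CPM of 6 neuron markers (left) and CPM of Smarca2 and Smarcc2 (middle and right) in each library, with bars from 0, blue for wild type, yellow for the library labelled heterozygote and red for EpoR-null. EpoR-null replicate 1 has the tallest marker and Smarca2 bars (998 and 18.6 CPM), and replicate 2 has the shortest marker and Smarcc2 bars (188 and 108 CPM).

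Transcript length moved with these results. Over the genes tested with a known transcript length (12577 of 12703), divided by length into 5 classes of similar size, the median log2 fold change went from 0.37 in the shortest length class (66 to 1858 bases) through 0.17, 0.03 and -0.12 to -0.37 in the longest length class (over 5257 bases). In the longest length class 16.1% of genes were called lower, against 0.159% in the shortest. Smarca2, Smarca4, Smarcc1, Arid1a, Arid1b and Arid2 belong to the longest length class, and these include every member that passed. Smarcb1, at 1660 bases, belongs to the shortest length class, Smarcd1 and Smarce1 to the middle and Smarcc2 to the length class of 3784 to 5257 bases. The fold changes of Arid1a (8187 bases), Arid2 (8507 bases), Smarcc1 (5773 bases) and Arid1b (11325 bases) were -0.48, -0.64, -0.45 and -0.44. These were below the median of their length class, and Smarca4 (6376 bases), at -0.32, was above it. The class runs up to 123180 bases, so its median is not matched to the length of a single gene. Smarca2, of 5921 bases, was the member of that length class with a positive fold change.

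**Figure D4:**
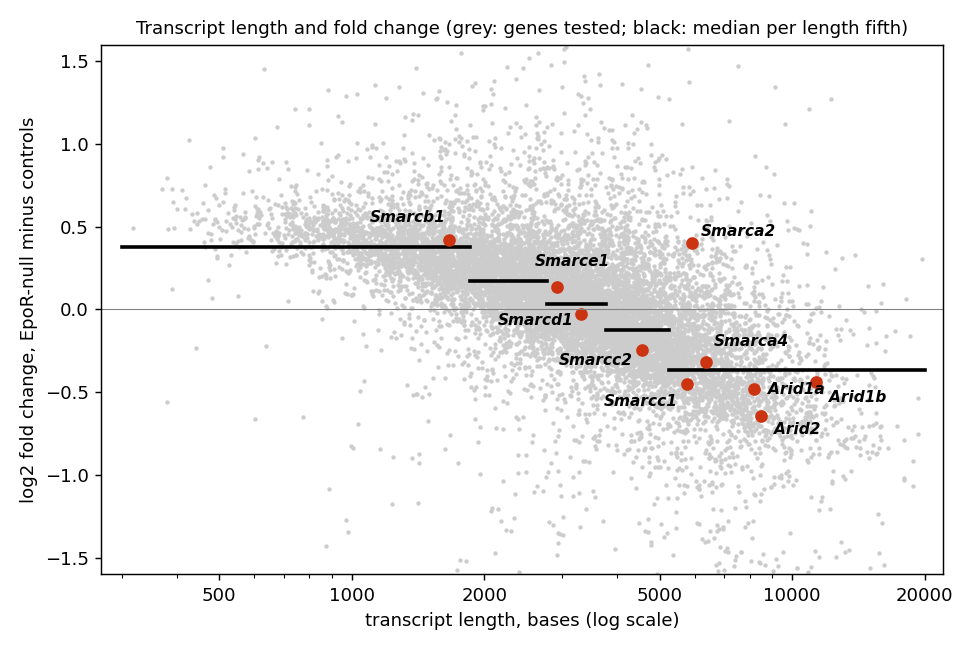
Log2 fold change of EpoR-null minus controls against transcript length in bases (log scale) for the genes tested (grey), with the median of each length class (black bars) and the 10 members (red); 129 genes outside the axes are not drawn. The black bars step down from 0.37 to -0.37, and Smarca2 is the red point above 0 among the long transcripts.

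When each library's trend on transcript length and GC content was removed through offsets, the likelihood-ratio test of edgeR called 0 of 10 members, with 1 (Smarca2) at an unadjusted p under 0.05, and 157 of 12577 genes in all. Without offsets the same test called 2 members. The log2 fold change became -0.13 for Arid1a, -0.16 for Arid2, -0.18 for Smarcc1, -0.07 for Smarca4 and 0.10 for Smarcb1, each with FDR 0.999. That of Arid1b changed sign, to 0.09. Smarca2 had the largest absolute value with offsets, 0.63 (FDR 0.568). The median of the members was then -0.10, beside 0.01 over all genes. The calls of Arid1a and Arid2 thus did not remain once the trend was removed, and the source of the trend was not tested.

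**Figure D5:**
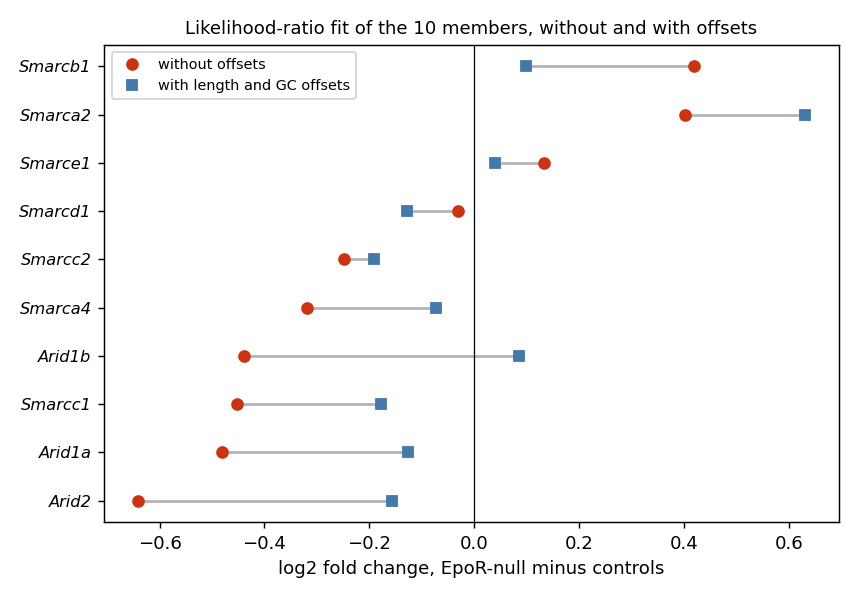
Log2 fold change (horizontal axis, EpoR-null minus controls) of the 10 members in the likelihood-ratio fit without (red circles) and with (blue squares) offsets for transcript length and GC content. The squares of 8 members are nearer to 0 than their circles, those of Smarca2 and Smarcd1 are farther from it, and the square of Arid1b lies on the other side of 0.

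Levels of different members were compared as CPM per kilobase of transcript. Smarce1 was highest in controls (125 ± 5.96, SD, n = 3). Smarcc1, Smarcb1, Smarcd1 and Smarca4 followed at 88.8 ± 3.95, 87.9 ± 3.92, 87.1 ± 1.96 and 85.0 ± 4.18, and each neighbouring pair of these overlapped between the control libraries. Arid1a (41.6 ± 0.186), Smarcc2 (36.4 ± 1.99), Arid2 (22.3 ± 1.56), Arid1b (8.34 ± 0.0779) and Smarca2 (1.86 ± 0.354) were lower, each without overlap with its neighbour. In EpoR-null libraries Smarcb1 stood at 117 ± 18.7 per kilobase (SD, n = 2) and Smarcc1 and Smarca4 at 64.9 ± 4.16 and 68.1 ± 2.69. The ratio of Arid1a to Arid1b per kilobase was 4.95 to 5.05 in controls and 4.45 and 5.37 in EpoR-null. That of Smarcc1 to Smarcc2 was 2.39 to 2.48 in controls and 1.80 and 2.63 in EpoR-null. In both of these pairs the EpoR-null libraries lay on either side of the controls. The ratio of Smarcd1 to Smarcd2 was 5.57 to 6.94 in controls and 4.49 and 5.25 in EpoR-null, so that both EpoR-null libraries were below all controls. That of Smarcd1 to Smarcd3 was 8.99 to 11.9 in controls and 5.92 and 10.4 in EpoR-null, which overlapped. None of these ratios was tested.

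Other families of ATP-dependent remodellers were set beside the members. All 9 CHD genes had negative log2 fold changes, with a median of -0.70 and 3 called lower in the edgeR exact test, and for the 11 ISWI genes the median was -0.50 with 3 called lower. For the 23 genes of the INO80, SRCAP and TIP60 complexes in the tables it was 0.09, with 4 called lower. None of the 3 lists had a gene called higher. The background for lower calls was 3.84% of all genes tested and 16.1% in the longest length class (over 5257 bases). The median transcript lengths were 9085, 6492 and 2328 bases, against 5847 bases for the members, 2589 bases for the other BAF and PBAF subunits and 3243 bases over all genes tested. With length and GC offsets the medians were -0.20, -0.16 and -0.05, and 0 genes of the 3 lists were called in the likelihood-ratio test of edgeR. No difference between the members and these lists was tested.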

How the data were processed

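PolyA RNA from 5 mouse neural tube libraries was analysed. Per the submitters' processing notes, trimming was done with Trimmomatic 0.32, alignment with TopHat2 2.1.0 and counting per gene with HTSeq 0.6.1, and the authors deposited raw read counts, 1 table per library, without normalization. The notes name the mouse build mm9, whereas the paper names the human build hg19 and an earlier TopHat version. HTSeq leaves out reads with several alignments or several genes. Its 5 summary lines were not used as genes, and reads outside genes were 8.12% to 11.0% of uniquely aligned reads. Gene positions come from GENCODE M21 (GRCm38) and promoters from RefSeq, matched by symbol.

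The software was R 4.3.3 with the packages edgeR 4.0.16 and DESeq2 1.42.0. Following the study's methods, TMM normalization, tagwise dispersions and exactTest compared 2 EpoR-null libraries with 3 controls, with Benjamini-Hochberg adjustment over the 12703 genes that exceeded a CPM of 1 in 2 or more libraries. Genes past p < 0.001 and FDR < 0.05 in this exact test were called. Standard errors come from the negative binomial information, and 95% intervals from them. CPM use TMM library sizes and cover counting and library spread only. Length and GC content, read from the longest protein-coding transcript, were found for 99.0% of genes tested and 98.7% of those called. Offsets were loess trends (span 0.5). Other tests, filters, scalings and each library left out were tried. The scripts were tested on simulated data.

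The members and gene lists were chosen with earlier results of these data known. Named genes are the 10 members, the other BAF and PBAF subunits that passed, and the progenitor, neuronal and paralogous variants. Actb, Brd7 and single genes of the other remodeller families were chosen after their values were seen. Libraries differed from each other by more than counting noise (lowest chi-square per degree of freedom 10.1), so each was counted once.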

Additional observations from a re-analysis of the deposited data

How the results depend on the processing

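The 2 lower members called became 0 with the quasi-likelihood F-test, 0 with length and GC offsets, 1 with library size only (Arid2 fell short, p = 0.00172 in the edgeR exact test) and 4 with DESeq2, and they ranged from 0 to 5 with 1 library left out. The FDR < 0.05 rule alone gave 3. The share of all genes called lower moved as well. It was 3.84% in the exact test, 5.93% with DESeq2, 3.98% with library size only and 1.07% with length and GC offsets. Without wild type replicate 1, wild type replicate 2 or the library labelled heterozygote it was 0.881%, 2.23% and 1.89%. Leaving out either EpoR-null library leaves 1 in that group, so no count of calls from those fits is given here. Whether the member counts moved more than these shares was not tested. Members called higher stayed at 0 with any 1 control left out, and the log2 fold change of Smarcb1 was 0.57 without EpoR-null replicate 1. The other subunits called lower, 0 at first, were 2 at FDR < 0.05 alone, 1 with DESeq2 and 0 with any 1 control left out. The median log2 fold change of the members was -0.10 with length and GC offsets, where the trend itself is removed, and ran from -0.44 to -0.24 with 1 library left out, the -0.44 being without EpoR-null replicate 1. Directions turned for Arid1b with offsets (0.086), for Smarca2 (-0.062 to 0.75 with 1 library left out) and Smarcd1 (-0.23 to 0.14), both without EpoR-null replicate 1, and for Smarcc2 (-0.62 to 0.051) without EpoR-null replicate 2. The cause of these changes was not tested. RLE size factors, no filter and a minimum of 10 reads in every library left 2 or 3 members called lower, and no scaling moved the median of all genes by more than 0.048. Libraries share replicate numbers, and the labels do not say whether a number marks a litter or batch. Across 12703 genes, which are not independent, replicate 2 minus replicate 1 in wild type had a Pearson's r of 0.468 (Spearman's rho 0.538) with the like difference in EpoR-null. With a replicate block for that number, the quasi-likelihood F-test called 0 members at both thresholds and 291 genes in all. Arid1a, Arid2 and Smarcc1 had FDR 0.0496, 0.0479 and 0.0496 in it. Its count of members at an unadjusted p under 0.05 was 6, and the like count over all genes was not computed.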

Other observations

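Among the other remodellers, the genes called lower in the exact test of edgeR were Chd1, Chd3 and Chd7 of the CHD family, Bptf, Baz2a and Cecr2 of the ISWI complexes, and Ino80, Ep400, Ino80d and Trrap of the INO80, SRCAP and TIP60 complexes. Chd7, the gene mutated in CHARGE syndrome, went from 255 CPM in controls to 125 CPM in EpoR-null (log2 fold change -1.03, FDR 0.000784), and Chd3 from 217 to 110 CPM (-0.98, FDR 0.00152). Bptf, the large subunit of the NURF remodeller, went from 189 to 102 CPM (-0.89, FDR 2.55e-05), and Ep400, the ATPase of TIP60-p400, from 222 to 139 CPM (-0.68, FDR 5.96e-05). With length and GC offsets the log2 fold changes of Chd7, Chd3, Bptf and Ep400 were -0.54, -0.70, -0.29 and -0.13. None then passed in the likelihood-ratio test of edgeR (FDR 0.0938, 0.120, 0.882 and 0.999). In the quasi-likelihood F-test the FDR was 0.0767, 0.0813, 0.0594 and 0.0590. The AAA ATPases Ruvbl1 and Ruvbl2, shared by INO80, SRCAP and TIP60 complexes, had log2 fold changes of 0.24 (95% interval -0.22 to 0.70) and 0.24 (-0.30 to 0.78) and did not pass.

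Measured within a replicate number, on log2 of CPM + 0.5, Arid1a differed by -0.41 for number 1 (EpoR-null against the mean of wild type and the library labelled heterozygote) and -0.55 for number 2 (EpoR-null against wild type). Arid2 differed by -0.49 and -0.76, Smarcc1 by -0.42 and -0.45, Smarca4 by -0.24 and -0.44, and Smarcb1 by 0.28 and 0.51. Arid1b differed by -0.24 and -0.66, and Smarce1 by 0.20 and 0.10. Smarca2 (0.80 and -0.15), Smarcc2 (0.0074 and -0.53) and Smarcd1 (-0.21 and 0.11) had opposite signs for the numbers.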
